A study of Mus musculus with 8 samples.

Results

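Ephrins and Eph receptors were examined in the outflow tract of the mouse embryo, the vessel-like segment through which blood leaves the heart. The set was 10 named genes: the A-class ephrins Efna1 and Efna5, the B-class ephrins Efnb1 and Efnb2, the EphA receptors Epha3, Epha4 and Epha7, and the EphB receptors Ephb2, Ephb3 and Ephb4. They were chosen by name, with every probe of theirs, and not by a measured value, though earlier results of these data were known. Together they had 14 of the 55681 probes on the array and stood for 10 of the 24388 genes tested. The filter on dim probes removed none of them, and all 14 probes were well above background on all 8 arrays, with none saturated.

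Each array held the RNA of 1 pool of 4 outflow tracts dissected at E10.5. The knockout group was 4 pools (numbered 1, 2, 3 and 7) of Raldh2-/- embryos. Raldh2, now named Aldh1a2, makes retinoic acid from retinaldehyde, and its loss is a germline mutation of every tissue. The wild type group was 4 pools (1, 2, 5 and 7) of littermates. The dams of both groups ate food with all-trans-retinoic acid at 0.1 mg/g between E7.5 and E8.5, so knockout and wild type alike had received the compound, and the comparison was between rescued embryos. No group without the supplement was included, and strain and sex are not given in the sources used here. In pooled bulk tissue, fewer cells of a type and less RNA per cell cannot be told apart.

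Eph receptors are the largest family of receptor tyrosine kinases, and their ligands, the ephrins, sit on the surface of the neighbouring cell. A-class ephrins are held to the membrane by a lipid anchor and mostly bind EphA receptors. B-class ephrins cross the membrane, mostly bind EphB receptors, and also signal into the cell that carries them. Contact between the partners moves cells apart or together, which sorts tissues at boundaries, guides axons and migrating neural crest, and separates arteries, which carry ephrin-B2, from veins, which carry EphB4.

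The probes on which the results below turn are 60 bases long and are placed on the mm9 build by the array's own annotation. Which exon, coding stretch or untranslated region each one covers is not given there. For Epha7 the array lists probes on a transcript variant 1 and on a transcript variant 2, and their values are compared further on. Whether the variant 2 probes also match variant 1 was not looked up, so these names give only the listing. The variant 1 probe lies on chromosome 4 from 28891069 to 28891128 (plus strand). The first variant 2 probe lies upstream of it, from 28869764 to 28869823. For Ephb4 the second probe, on chromosome 5 from 137813703 to 137813762 (plus strand), is shown because it moved less than the first. For Ephb3 30 bases of its only probe, on chromosome 16 from 21223165 to 21223224 (plus strand), are shown because of the repeat they hold. Each is written 5′ to 3′ as the files give it, and capitals mark only the alternating T and G of Ephb3.
Epha7, variant 1 probe: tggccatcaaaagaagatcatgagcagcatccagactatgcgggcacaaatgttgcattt
Epha7, variant 2 probe: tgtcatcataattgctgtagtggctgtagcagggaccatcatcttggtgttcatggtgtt
Ephb4, second probe: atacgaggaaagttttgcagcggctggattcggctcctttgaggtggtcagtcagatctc
Ephb3, bases 22 to 51 of the probe: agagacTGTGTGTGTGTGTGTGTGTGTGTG

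Signals are given on a log2 scale on which 0 is the 75th percentile of the array and 1 is double that percentile, and the level of 1 gene's probe is not compared with that of another gene's. One array stood apart before any comparison. The median signal of wild type pool 1 was 2023 against 40.0 to 83.0 on the other 7, 94.7% of its spots were called well above background against 53.3% to 63.2%, and its median correlation with the other arrays over all spots was 0.685 against 0.967 to 0.985. The comparisons between the groups are therefore given over 8 arrays and over 7, without wild type pool 1, while correlations across pools are given over those 7 alone. All knockout arrays lay in slide row 1 and all wild type arrays in slide row 2, and these effects cannot be told apart. The targeted gene, Aldh1a2, lay between 0.059 and 2.02 in the knockout pools and between 1.92 and 3.65 in the wild type pools, and all 4 knockout pools were below the 3 wild type pools other than pool 1. Whether its probe lies in the deleted stretch was not looked up.

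None of the 10 genes passed the test between rescued knockout and rescued wild type. With limma and Benjamini-Hochberg adjustment over all genes, 0 of 10 passed over 8 arrays and 0 of 10 over 7, and the same held for the whole array (0 of 24388 genes, 0%, and 0 of 23742, 0%). At an unadjusted limma p under 0.05 there were 434 genes (1.78%) over 8 arrays and none of the 10, and 2506 genes (10.6%) over 7 arrays, among them 1 of the 10, Epha7. The groups did not overlap in 0 of the 10 over 8 arrays, where 5.49% of all genes had no overlap. Over 7 arrays 2 of the 10, Epha7 and Ephb4, had no overlap, both lower in the knockout, where 11.4% of all genes had none and 4.88% had none and were lower. With 10 genes, 2 is near what the 11.4% of either direction gives and above what the 4.88% of the lower direction gives. No test of these counts was made.

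The values over 8 arrays moved with wild type pool 1. It was the lowest of the 8 pools in 6 of the 10 genes and the highest in 1, Ephb2, and it differed from the mean of the other wild type pools by -2.37 (Efna5) to 0.95 (Ephb2). The median log2 fold change of the 10 genes, knockout minus wild type, was 0.37 over 8 arrays, with 7 of 10 higher, but 0.91 with 10 of 10 higher when arrays were scaled by their median, and -0.034 with 4 of 10 higher under array weights. Over all genes the median was 0.13, with 56.9% higher. Without that pool the median of the 10 was 0.027, with 5 of 10 higher, beside 0.053 and 59.3% for all genes. The 95% interval of the log2 fold change lay within a fold of 2 in either direction for 3 of the 10 genes over 8 arrays and for 9 of the 10 over 7.

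**Figure D1:**
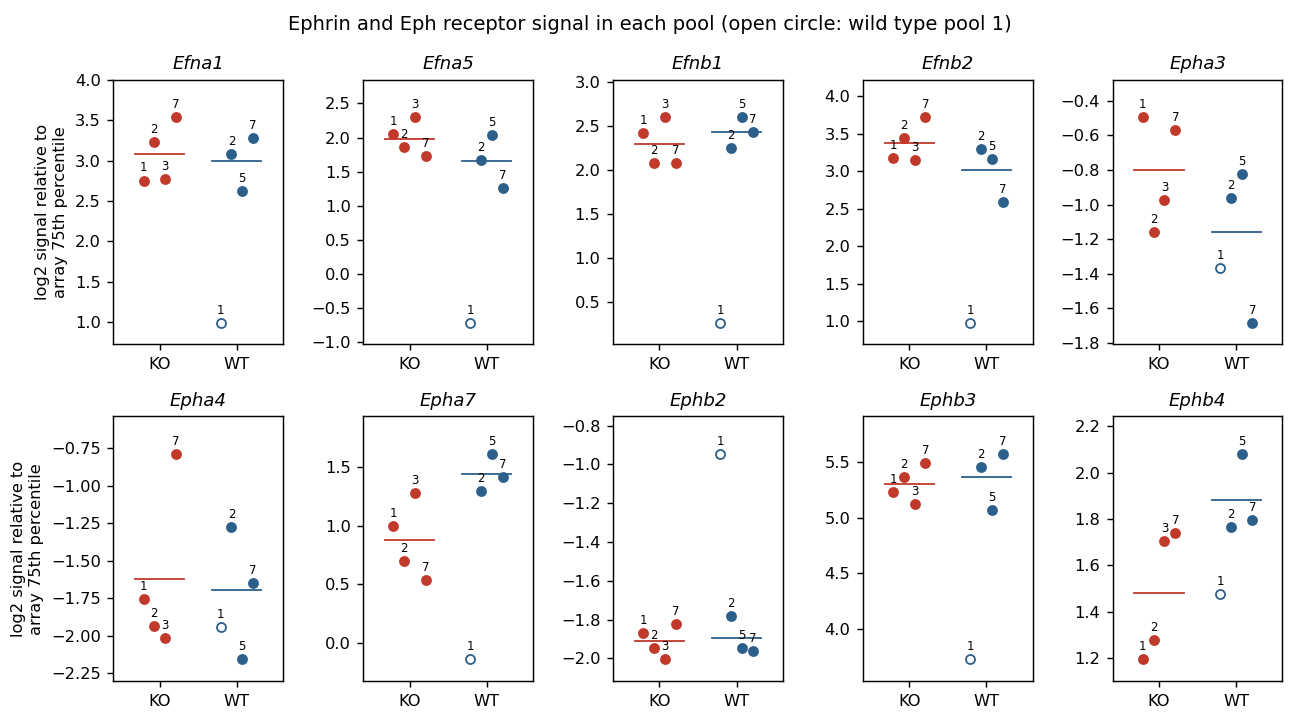
Log2 signal of each of the 10 genes in every pool (0 is the array's 75th percentile), in 1 panel per gene with its own axis. Each dot is 1 pool with its number, red for knockout and blue for wild type, the open circle is wild type pool 1, and the lines are means over the filled dots; that circle lies below all other pools for Efna1, Efna5, Efnb1, Efnb2, Epha7 and Ephb3 and above them for Ephb2.

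**Figure D2:**
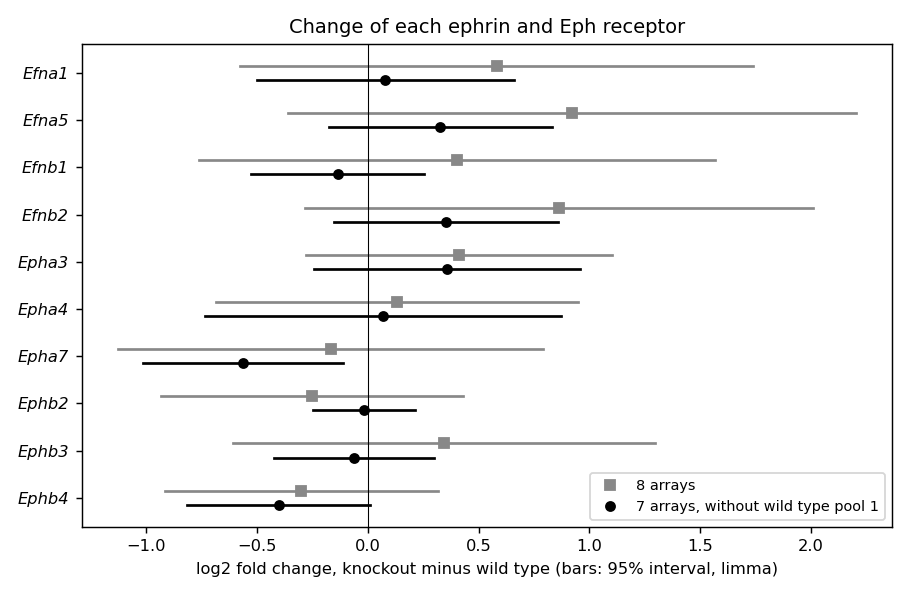
Log2 fold change, knockout minus wild type, of each gene with its 95% interval from limma, over 8 arrays (grey squares) and over 7 arrays without wild type pool 1 (black circles). The intervals over 7 arrays are the shorter ones for all 10 genes, and the one of Epha7 (-1.01 to -0.11) does not cover 0.

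Among the ligands, both A-class ephrins overlapped between the groups. Efna1, a lipid-anchored ligand found on endothelium, measured 2.75, 3.24, 2.78 and 3.54 in the knockout (pools 1, 2, 3 and 7, the order kept from here on) and 0.99, 3.08, 2.62 and 3.29 in the wild type (pools 1, 2, 5 and 7). Apart from the low wild type pool 1 the groups covered the same range, with knockout pool 7 highest and wild type pool 5 lowest of the 7. Its log2 fold change was 0.58 ± 0.51 (SE; limma adjusted p = 0.735) over 8 arrays and 0.080 ± 0.25 (adjusted p = 0.917) over 7. Without knockout pool 7 as well, it was -0.075.

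Efna5, a lipid-anchored ligand known for repelling axons, had 2.04, 1.86, 2.30 and 1.72 in the knockout and -0.72, 1.67, 2.03 and 1.26 in the wild type pools. The knockout pools were high in the range: all 4 lay above wild type pools 2 and 7, and wild type pool 5 lay among them. Its log2 fold change was 0.92 ± 0.56 (limma adjusted p = 0.735) over 8 arrays, the largest of the 10 genes in that fit, and 0.33 ± 0.21 (adjusted p = 0.599) over 7.

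Of the B-class ephrins, Efnb1, an X-linked transmembrane ligand needed in neural crest for skull and palate, had 2.41, 2.07, 2.59 and 2.08 in the knockout and 0.27, 2.25, 2.60 and 2.43 in the wild type. Knockout pools 2 and 7 were the lowest of the 7, but pools 1 and 3 lay among the wild type pools. Its direction depended on wild type pool 1: the log2 fold change was 0.40 ± 0.51 (limma adjusted p = 0.736) over 8 arrays and -0.14 ± 0.17 (adjusted p = 0.783) over 7, with a 95% interval of -0.53 to 0.25.

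Efnb2, the transmembrane ligand of arterial endothelium, had 3.18, 3.45, 3.15 and 3.72 in the knockout and 0.98, 3.30, 3.17 and 2.60 in the wild type. Knockout pools 7 and 2 were the highest, wild type pool 7 was the lowest of the 7, and the remaining pools lay close together, so the groups overlapped. The log2 fold change was 0.86 ± 0.51 (limma adjusted p = 0.735) over 8 arrays and 0.35 ± 0.22 (adjusted p = 0.575) over 7, with an interval of -0.15 to 0.86. A second Efnb2 probe, further 5′ in the same transcript, gave 0.15 ± 0.34 over 8 arrays and 0.19 ± 0.32 over 7. That probe was far dimmer than the first, at -2.71 to -1.37 in the 7 pools other than wild type pool 1.

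Among the EphA receptors, Epha3 had -0.49, -1.16, -0.97 and -0.57 in the knockout and -1.36, -0.96, -0.83 and -1.68 in the wild type. This receptor is known in the heart for its part in forming the atrioventricular cushions. Knockout pools 1 and 7 were the highest of the 8 and wild type pool 7 the lowest, with the other pools mixed. Knockout exceeded wild type by 0.41 ± 0.30 on the log2 scale (limma adjusted p = 0.735) over 8 arrays and 0.36 ± 0.26 (adjusted p = 0.625) over 7. On this scale wild type pool 1 was 0.21 below the mean of the other wild type pools. Under quantile and median scaling the value over 8 arrays was 1.17 and 0.95, and over 7 arrays 0.35 and 0.15.

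Epha4, a receptor that binds ephrins of both classes, had -1.76, -1.93, -2.02 and -0.79 in the knockout and -1.94, -1.27, -2.16 and -1.65 in the wild type. One knockout pool, pool 7, stood above all others, and the remaining 3 lay inside the wild type range. The range over the 7 pools other than wild type pool 1 was 1.37, the widest of the 10 genes. The log2 fold change was 0.13 ± 0.36 (limma adjusted p = 0.847) over 8 arrays and 0.070 ± 0.34 (adjusted p = 0.950) over 7, and without knockout pool 7 it was -0.15 and -0.21. The array of knockout pool 7 also had the lowest Aldh1a2 value and a median correlation with the other arrays of 0.967 against 0.984 for the other knockout arrays. Their part in the Epha4 value was not tested.

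Epha7, a receptor expressed as a full-length kinase and as shortened forms that lack it, gave the lowest unadjusted p of the 10 genes over 7 arrays. Its variant 1 probe, which stood for the gene, had 1.00, 0.70, 1.28 and 0.54 in the knockout and -0.14, 1.29, 1.61 and 1.42 in the wild type. All 4 knockout pools were below wild type pools 2, 5 and 7, although knockout pool 3, at 1.28, nearly reached wild type pool 2, at 1.29. Over 7 arrays the knockout mean was 0.88 ± 0.33 (SD, n = 4) and the wild type mean 1.44 ± 0.16 (SD, n = 3). The log2 fold change was thus -0.56 ± 0.19 (SE), or 1.48-fold lower. Its unadjusted limma p was 0.0211 and the adjusted p was 0.413. Of all genes, 4.33% had an unadjusted limma p under 0.05 and were lower in the knockout. Over 8 arrays, with wild type pool 1 far below every other pool, the log2 fold change was -0.17 ± 0.42 (limma adjusted p = 0.835), and it turned to 0.37 with each array scaled by its median.

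Over 7 arrays the variant 2 probes of Epha7 differed less between the groups. The one printed above had -0.59, -0.77, -0.44 and -0.75 in the knockout and -1.48, -0.58, -0.25 and -0.024 in the wild type. Here the groups overlapped, since knockout pool 3 lay above wild type pool 2. In a fit over all probes its log2 fold change was -0.055 ± 0.35 over 8 arrays and -0.35 ± 0.16 (limma adjusted p = 0.501) over 7. The other variant 2 probe, on chromosome 4 from 28873570 to 28873629, overlapped too, and its log2 fold change was -0.21 ± 0.26 over 8 arrays, larger in size than that of the variant 1 probe there, and -0.13 ± 0.17 (limma adjusted p = 0.806) over 7. All 3 probes were lower in the knockout over 7 arrays, and whether they differed from each other in their change was not tested. Since a variant 2 probe may also match variant 1, the probes are not read as separate measures of the variants.

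**Figure D3:**
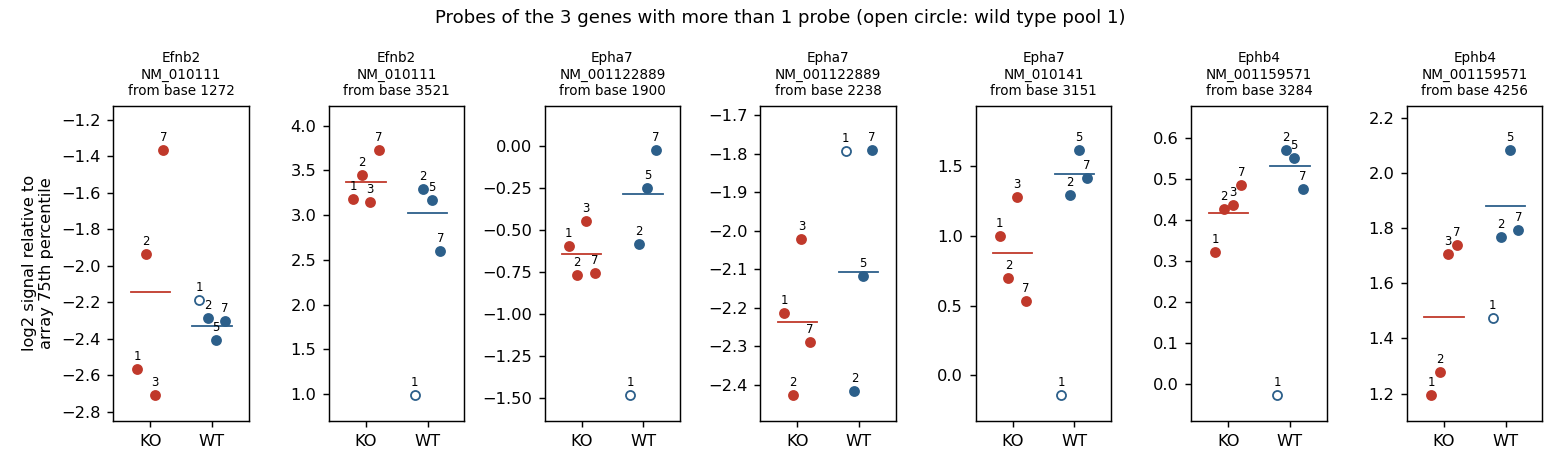
Log2 signal in every pool (0 is the array's 75th percentile) for each probe of Efnb2, Epha7 and Ephb4, the 3 genes with more than 1 probe, headed by the RefSeq transcript and first base the probe is listed on. Dots, pool numbers and lines are as in the plot of all 10 genes; without wild type pool 1 the groups are separate for the Epha7 probe from base 3151 and the Ephb4 probe from base 4256 and overlap for the other 5.

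Among the EphB receptors, Ephb2, which acts with Ephb3 in axon crossing and palate closure, was the steadiest gene. It had -1.87, -1.95, -2.004 and -1.82 in the knockout and -0.95, -1.78, -1.94 and -1.96 in the wild type. Outside wild type pool 1 the 7 values spanned 0.22, the narrowest range of the 10 genes, beside a median range of 0.98 for the 10 and 0.65 for all genes. The log2 fold change was -0.25 ± 0.30 (limma adjusted p = 0.735) over 8 arrays and -0.015 ± 0.098 (adjusted p = 0.964) over 7. The 95% interval over 7 arrays, -0.25 to 0.22, holds no difference larger than 0.25 on this scale in either direction.

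Ephb3, a partner of Ephb2 also known from sorting of the intestinal lining, had 5.23, 5.36, 5.12 and 5.49 in the knockout and 3.73, 5.45, 5.07 and 5.57 in the wild type. The groups covered the same range apart from wild type pool 1. The fitted log2 fold change was 0.35 ± 0.42 (limma adjusted p = 0.735) over 8 arrays and -0.063 ± 0.15 (adjusted p = 0.891) over 7, so its sign also turned with that pool.

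The Ephb3 probe is the one of the 14 with a long repeat. Bases 28 to 60 of it, 33 in all, are an alternating run of T and G, of which the stretch printed above shows a part. Of all 55681 probes, 52 (0.0934%) held such a run of at least 20 bases, and no other probe of the 10 genes did. The brightness of these 52 probes, as probes and not as transcript levels, had a median of 5.50 over the 7 pools, with quartiles of 4.82 and 6.39. The median of all probes was -4.22, and the Ephb3 probe was at 5.36. Across those 7 pools the Ephb3 probe correlated with the other 51 run-bearing probes with r from 0.859 to 0.998 (median 0.960). The median r with the 33403 other kept probes, of any brightness and with kept run-bearing probes among them, was 0.059. An r of at least 0.9 was reached by 46 of the 51 and by 0.835% of the 33403. Before scaling, the Ephb3 signal was 39000 to 39573 in the knockout pools, whose 75th percentiles were 1040, 959, 1134 and 880. All values were divided by that percentile, and its part in these correlations was not tested. These correlations were computed after the run had been seen, are over 7 pools of the same arrays, and are a description. How far the signal is that of Ephb3 was not tested.

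Ephb4, the receptor of venous endothelium, was the second gene without overlap over 7 arrays. Its first probe, on chromosome 5 from 137815646 to 137815705, had 1.19, 1.28, 1.70 and 1.74 in the knockout and 1.48, 1.77, 2.08 and 1.79 in the wild type. All 4 knockout pools were below wild type pools 2, 5 and 7, knockout pool 7 by little, while wild type pool 1 fell among the knockout pools. The log2 fold change was -0.30 ± 0.27 (limma adjusted p = 0.735) over 8 arrays and -0.40 ± 0.18 (adjusted p = 0.475) over 7, with an interval of -0.81 to 0.011. The second probe, in the sequence printed above, had 0.32, 0.43, 0.44 and 0.49 in the knockout and -0.028, 0.57, 0.55 and 0.48 in the wild type. There the groups overlapped also without wild type pool 1, and the log2 fold change was 0.025 ± 0.25 over 8 arrays and -0.12 ± 0.093 over 7. Both probes are listed on the same transcript, and they differed in size over 7 arrays and in sign over 8.

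Efnb2 and Ephb4 are binding partners that mark arteries and veins, so the log2 difference between their probes was taken within each array, where the scaling between arrays cancels. Efnb2 minus Ephb4 was 1.98, 2.17, 1.45 and 1.99 in the knockout and -0.49, 1.53, 1.09 and 0.80 in the wild type. Only the changes between pools can be read, since the probes' own brightness is part of each value. Knockout pools 1, 2 and 7 were above all wild type pools, and knockout pool 3 was just below wild type pool 2. Over 8 pools the knockout mean was 1.90 ± 0.31 (SD, n = 4) and the wild type mean 0.73 ± 0.87 (SD, n = 4). They differed by 1.16, with an exact permutation p of 0.0571 (two-sided, 70 assignments). Over 7 pools the difference was 0.75, with an exact permutation p of 0.0857 (35 assignments), where 0.0286 is the smallest either design can give. Both p-values were above 0.05. Leaving out wild type pool 2 instead gave 1.43 with an exact permutation p of 0.0286. That pool was the only wild type pool above a knockout pool, so the groups separate without it by construction, and nothing is read from this p. Leaving out any other single pool of the 8 gave an exact permutation p of 0.0571 to 0.0857. With the mean of each gene's probes in place of the brightest one, the difference was 0.64 over 8 pools and 0.53 over 7. That mean takes in the far dimmer second Efnb2 probe at equal weight. A larger difference shows unequal change of the pair and not which of them changed.

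**Figure D4:**
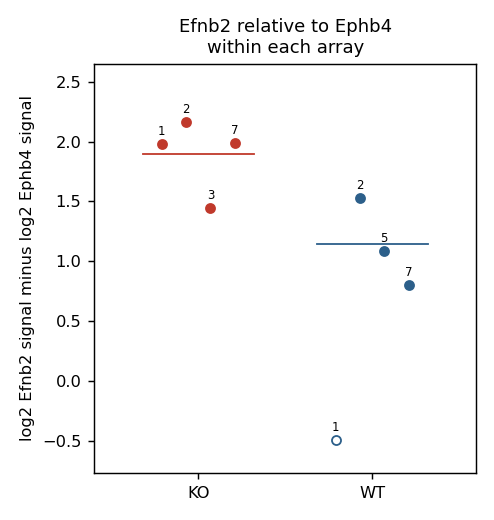
Log2 signal of Efnb2 minus log2 signal of Ephb4 within each array. Dots are pools with their numbers, red for knockout and blue for wild type, lines are means over the filled dots, and the open circle is wild type pool 1; knockout pools lie between 1.45 and 2.17 and wild type pools between -0.49 and 1.53.

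Vascular markers were measured beside these genes. All 13 endothelial and endocardial markers were well above background on all 7 arrays other than wild type pool 1, and their summed signal, in multiples of the array's 75th percentile, was 67.4 to 91.6 in the knockout pools and 70.5 to 97.2 in wild type pools 2, 5 and 7. The groups overlapped in that sum, and 10 of the 13 were higher over 8 arrays (median log2 fold change 0.33) but 5 of 13 over 7 (median -0.073). All 12 arterial markers were likewise detected. Their sums, 81.9 to 90.2 in the knockout and 75.4 to 78.2 in those wild type pools, did not overlap, but the brightest markers weigh most in a sum. With each marker's log2 value centred on its mean over the 7 arrays, the average of the 12 did overlap. It was -0.13, 0.17, -0.058 and 0.40 in the knockout and -0.048, -0.17 and -0.15 in wild type pools 2, 5 and 7. Of the 12, 10 were higher over 8 arrays (median 0.67) and 9 over 7 (median 0.28). The 4 venous markers were detected too, with overlapping sums of 14.8 to 25.7 and 15.05 to 24.0, and 1 of the 4 was higher over 8 arrays (median -0.35) and 2 over 7 (median -0.017). In wild type pool 1 the 3 sums were 24.8, 21.0 and 7.00. No marker of the 3 lists passed the test over all genes in either fit, and the part of the number of arterial or venous cells in the Efnb2 and Ephb4 values was not tested.

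Some lists of markers of other cells are given here as well. All 10 mesenchyme and cushion markers were detected, with overlapping sums of 95.6 to 143 and 97.8 to 150, and 10 of 10 were higher over 8 arrays (median 0.55) but 4 of 10 over 7 (median -0.042). All 11 cardiomyocyte markers were detected, with sums of 1465 to 1703 and 1485 to 2230, and 10 of 11 were higher over 8 arrays (median 0.33) but 0 of 11 over 7 (median -0.18). Both tallies thus turned with wild type pool 1. All 6 erythroid markers were detected and were higher in both fits (median 1.16 over 8 arrays and 0.75 over 7), with overlapping sums of 484 to 913 and 380 to 879. Their part in the values of the 10 genes was not tested.

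The rest of the family behaved alike in that no gene passed. Of 12 further ephrins and Eph receptors 11 were measured, and Epha10 was not well above background on any of the 7 arrays. A probe of Epha5 is among the 52 with a long run of T and G, and which probe stood for Epha5 is not given here. With limma 0 of 11 passed in either direction; 9 were higher over 8 arrays (median log2 fold change 0.23) and 6 over 7 (median 0.010). Epha8, a receptor best known from the midbrain, had the largest difference, 1.10 ± 0.67 over 8 arrays and 1.11 ± 0.75 over 7 (limma adjusted p = 0.735 and 0.608). Its values ran from -2.77 to -0.70 in the knockout and from -3.95 to -1.13 in the wild type pools, which overlapped widely. The lowest, wild type pools 5 and 7 (-3.95 and -3.54), lay near the median of all probes over the 7 pools (-4.22). The size of the difference thus rests in part on dim values. Efna3 and Efna2, both lipid-anchored ligands, were at -0.69 and 0.19 over 8 arrays and at -0.19 and 0.30 over 7.

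All 36 listed signalling partners of the family were measured, among them adaptors, guanine nucleotide exchange factors, kinases and phosphatases. Probes of Itsn1 and Arhgef15 are also among the 52 with a long run of T and G, and which probes stood for these genes is not given here. With limma 0 of 36 passed in either direction; 29 were higher over 8 arrays (median 0.40) and 22 over 7 (median 0.059). Ptpn13, a phosphatase that acts on B-class ephrins, had 2.04, 2.08, 1.95 and 2.21 in the knockout and 0.091, 1.89, 1.80 and 1.79 in the wild type. All its knockout values were above all its wild type values, as in 3.95% of all genes over 8 arrays and 6.55% over 7. Its log2 fold change was 0.68 ± 0.42 over 8 arrays and 0.25 ± 0.098 over 7 (limma adjusted p = 0.735 and 0.459). Pick1, a scaffold that binds the tails of B-class ephrins and Eph receptors, was lower without overlap over 7 arrays, at -0.22 ± 0.087 (limma adjusted p = 0.453), and at -0.061 over 8. Vav2, an exchange factor recruited by active Eph receptors, was at -0.63 over 8 arrays and -0.54 over 7, with wild type pool 7 (-1.31) the highest and wild type pool 1 (-1.93) the next.

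Over the 7 pools other than wild type pool 1, the genes whose log2 values followed Efnb2 most closely among 16204 named genes were Sat1 (r = 0.991), Mitd1 (0.981) and Mvb12b (0.980), and 300 genes had r of at least 0.9. For Ephb4 they were Vps41 (0.984), Gm5067 (0.957) and Dph7 (0.940), and 14 genes reached 0.9. These are descriptions over 7 points that share the same arrays.

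The promoters of the 10 genes were searched for the letters AGGTCA on both strands, a hexamer that retinoic acid receptors bind in pairs. In the RefSeq table (GRCm38.p6) all 10 genes had an entry, 12 windows in all, each of 300 bases around the start of the gene. None of the 12 held it, and 16.3% of all 32851 windows in the table did. This says only that these letters are not in these windows.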

How the data were processed

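RNA of 8 outflow tract pools (50 ng each, integrity number over 8.0 per the labels) was hybridised to 1 slide of Agilent one-colour arrays, design 028005. The authors deposited, per array, linear signal intensity from Feature Extraction 10.7.3.1, which the file headers describe as background-subtracted and detrended, and a matrix of the same values (largest difference 0.496%). Of 59305 spots that were not controls, spots of a probe were averaged to 55681 probes, of which 26056 were named through their accession. The deposited intensity was divided by its 75th percentile on each array and the log2 taken. To be tested, a probe had to be called well above background by the scanner software on 3 or more arrays of either group (33404 probes, after 34 were lost to unusable spots). A gene was read from the brightest of these by its mean (24388 genes, 23742 over 7 arrays).

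Groups were compared in R 4.3.3 by limma 3.58.1 (two-sided moderated test of lmFit and eBayes, Benjamini-Hochberg over all genes, threshold 0.05), single values with exact permutation tests. SE is that of the fit. Each pool had 1 array and nothing says whether pools of one group share litters, so p-values measure spread between these pools, and the number of arrays limits precision. The members and lists were chosen with earlier results of these data known. Named were all 10 members, Aldh1a2, per list the 2 genes with the smallest p in each fit, and the 3 genes most like Efnb2 and Ephb4. Pool numbers are not stated to be pairs. Over 8 arrays, deviations of same-numbered pools from their group means correlated at r = -0.15, 0.32 and -0.41 (pools 1, 2 and 7). Over 7 arrays r was 0.038 and -0.025 (pools 2 and 7). Alternatives were the scaling (quantile, median), normexp background (offset 50), the matrix, the dim-probe filter, the mean of probes, single probes, trend and robust eBayes, array weights, pool number or slide column as a block, and leaving out each pool. The correlations of the Ephb3 probe with other repeat-bearing probes were added after the data were seen. Some marker lists, among them neural crest and neuronal markers, are not reported here.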

Additional observations from a re-analysis of the deposited data

Results flagged for a closer look

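Among 38 sets of 4 values checked for a sample far from the other 3 of its group, 6 had one. By chance about 1 in 20 would, which is 1.9. Of these 6, 4 were wild type pool 1. The processed signals of its array had a median of 2023, where the other wild type arrays had 40.0 to 56.9, and its median correlation with the other arrays was 0.685 against 0.979 to 0.985. Its Efnb1 value was 0.27 against 2.25 to 2.60, and its value of the second Ephb4 probe was -0.028 against 0.48 to 0.57. The other 2 were knockout pool 7, whose Aldh1a2 value was 0.059 against 1.87 to 2.02 and whose median correlation was 0.967 against 0.984.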

How the results depend on the processing

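No adjusted p of any of the 10 genes passed under any alternative (smallest 0.270 over 8 arrays, 0.298 over 7). Over 8 arrays, array weights gave 8 genes past the threshold of all genes and turned Efnb1 (-0.11), Epha4 (-0.049) and Ephb3 (-0.051); median scaling turned Epha7 (0.37), Ephb2 (0.29) and Ephb4 (0.24), and moved the median of all genes from 0.13 to 0.67; quantile scaling turned Ephb2 (0.31) and Ephb3 (-0.16) and left 1 gene of the 10 without overlap; and the second Ephb4 probe was at 0.025. Over 7 arrays, median scaling gave 22 genes past the threshold of all genes, moved the median of the 10 to -0.18 and that of all genes to -0.15, and turned Efna1 (-0.13) and Epha4 (-0.14). Array weights turned Epha4 (-0.028), and normexp background and the mean of a gene's probes each left 1 gene without overlap.

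Leaving out single pools, over 8 arrays the median of the 10 ranged from 0.027 to 0.50. Genes without overlap ranged from 0 to 2 (2 without wild type pool 1, 1 without wild type pool 5). Efnb2 minus Ephb4 ranged from 0.75 to 1.43. It was highest without wild type pool 2, the only wild type pool above a knockout pool (exact permutation p = 0.0286). Directions turned within -0.14 to 0.64 for Efnb1, -0.15 to 0.29 for Epha4, -0.56 to 0.022 for Epha7 and -0.063 to 0.55 for Ephb3. Over 7 arrays the genes past the threshold of all genes ranged from 0 to 10 (10 without wild type pool 5, 1 without knockout pool 7), the median of the 10 from -0.079 to 0.098 and genes without overlap from 2 to 3. Directions turned within -0.11 to 0.22 for Efna1, -0.21 to 0.28 for Epha4, -0.048 to 0.042 for Ephb2 and -0.21 to 0.041 for Ephb3. Except where a pool's or probe's removal is the setting itself, the cause was not tested. With the pool number as a replicate block the median of the 10 was 0.49 over 8 arrays and 0.044 over 7, with 0 genes past the threshold in both (unadjusted p under 0.05 for 234 genes over 8 arrays), and no call of the 10 changed.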
